A study of Mus musculus with 6 samples.

Results

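The DEAD and DEAH box RNA helicases were taken as the protein-coding genes whose symbols begin with Ddx or Dhx and a number, without the antiviral receptor genes Ddx58 and Dhx58 and the Y-linked gene whose symbol ends in y. Of 50 such genes, 47 had at least 10 reads over the 6 libraries, out of 19452 genes tested in all and 54532 listed. They comprised 32 DDX and 15 DHX genes, classes taken from the symbols and not from the motifs of the proteins. The 3 genes left out are known from the germ line: Ddx25 had 5 reads, Ddx4 had 1 and Ddx43 had 0 in the 6 libraries together. The gene nearest above the limit was Ddx60, with 266 reads.

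Poly(A)+ RNA was sequenced from mouse Flp-In 3T3 cells, an established fibroblast line, in 3 libraries depleted of Safb, Safb2 and Sltm together (the labels' triple KD, here SAFB KD) and in 3 control libraries. The study transfected siRNAs against the 3 transcripts, repeated the transfection after a day and harvested on the third day. All libraries came from the same cell line, and the comparison asked how the fate of mouse transcripts changed when these nuclear RNA-binding proteins were depleted. The series text calls the replicates biological without saying how they were separated, so p values measure the spread between these samples of 1 cell line.

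DEAD and DEAH box proteins use ATP to pull apart short RNA duplexes or to strip proteins from RNA. DEAD box proteins (DDX) typically open a duplex locally, whereas DEAH box proteins (DHX) move along the strand, and many of either class are switched on by cofactors, MIF4G domain proteins for some DDX members and G-patch proteins for some DHX members. They act at nearly every step of RNA life, in splicing, mRNA export, ribosome assembly, translation and decay.

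The contrast rests on 3 siRNAs, whose sense strands are shown because they define the SAFB KD libraries. Capitals mark the 19 bases matched to the target, and lower case the overhang.
Safb siRNA: GGAUGACCGUUACCACUCAtt
Safb2 siRNA: UGCUUUUGAUGACAGUAAAtt
Sltm siRNA: GCAUUAGAAUAAUUCGUGAtt
The matched bases were present in 2 of 3 coding transcripts of Safb, 1 of 6 of Safb2 and 2 of 2 of Sltm, and in 0 transcripts of the 47 helicase genes or of any other gene. CPM are counts scaled to a common library size. Safb measured 48.5, 46.8 and 44.5 CPM in SAFB KD, against 90.2, 94.8 and 96.1 CPM in control, a log2 fold change of -1.01 ± 0.04 (SE, edgeR adjusted p = 6.56e-23). Safb2 and Sltm also fell, with log2 fold changes of -0.64 and -0.70. The libraries held 33323307 to 53441129 counts. Control 3 stood apart from the other controls on the second principal component (16.3% of variance), at -44.2 against 23.1 and 26.5. Fibroblast markers summed to 17745 to 18239 CPM in SAFB KD and 18793 to 20707 CPM in control. Of these 8 genes 6 were lower (75%) and 1, Dcn, higher (12.5%), against 20.1% and 21.4% of all genes tested. Fn1, the most abundant, was not called, at a mean of 9698 CPM in SAFB KD and 9469 CPM in control. Pdgfrb fell most, from a mean of 118 CPM in control to 53.7 CPM in SAFB KD (log2 fold change -1.13, edgeR adjusted p = 4.79e-25). Epithelial, leukocyte, endothelial and germ cell marker lists each summed to at most 10.4 CPM in any library, and 9 of these 16 genes were under 10 reads, among them Epcam, Ptprc, Cd3e and Dazl. The endothelial list summed to 9.38 to 10.4 CPM in SAFB KD and 7.89 to 8.39 CPM in control, and its gene Pecam1 was higher at 1.96, 1.28 and 1.14 CPM in SAFB KD, against 1.15, 0.689 and 0.744 CPM in control (log2 fold change 0.72, edgeR adjusted p = 0.0187). The leukocyte list summed to 4.85 to 5.46 CPM in SAFB KD and 4.14 to 4.67 CPM in control, all from Csf1r, which did not pass (edgeR adjusted p = 0.0616). The epithelial list summed to 0.477 to 0.995 CPM in SAFB KD and 0.622 to 0.834 CPM in control, and the germ cell list to 0 to 0.0763 CPM in SAFB KD and 0.0492 to 0.277 CPM in control. The part of these markers in the results was not tested. In bulk RNA, fewer cells with a transcript and less of it per cell cannot be told apart.

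Changes in the helicase genes were frequent and small. At an edgeR adjusted p under 0.05, 19 of 47 members were higher in SAFB KD and 10 were lower, and 18 did not pass. Over all genes tested, 21.4% were higher and 20.1% lower. Among protein-coding genes that averaged 10 CPM or more, which resemble the helicase genes in abundance, 35.9% were higher and 29.9% lower, against 40.4% and 21.3% of members. The groups did not overlap for 33 members (70.2%), against 49.0% of all genes tested and 70.9% of those abundant coding genes. Thus the share of members called lay near that of coding genes of similar abundance. The median log2 fold change was 0.058 over members, 0.025 over the abundant coding genes and 0.010 over all genes tested, and members ranged from -0.30 to 0.59. Beyond 2-fold, glmTreat called 0 members, with 0 at an unadjusted p under 0.05 and 0 by DESeq2 or limma-voom, against 1.22% of all genes tested and 68 of the 8901 abundant coding genes. The largest changes by size, those of Ddx41, Ddx39, Ddx10, Ddx18 and Ddx31, were all rises. The called members changed by a median of 1.17-fold, those of the abundant coding genes by 1.19-fold and those of all genes tested by 1.25-fold. Of the 29 calls, 20 (12 higher, 8 lower) held in all 12 alternative settings.

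**Figure D1:**
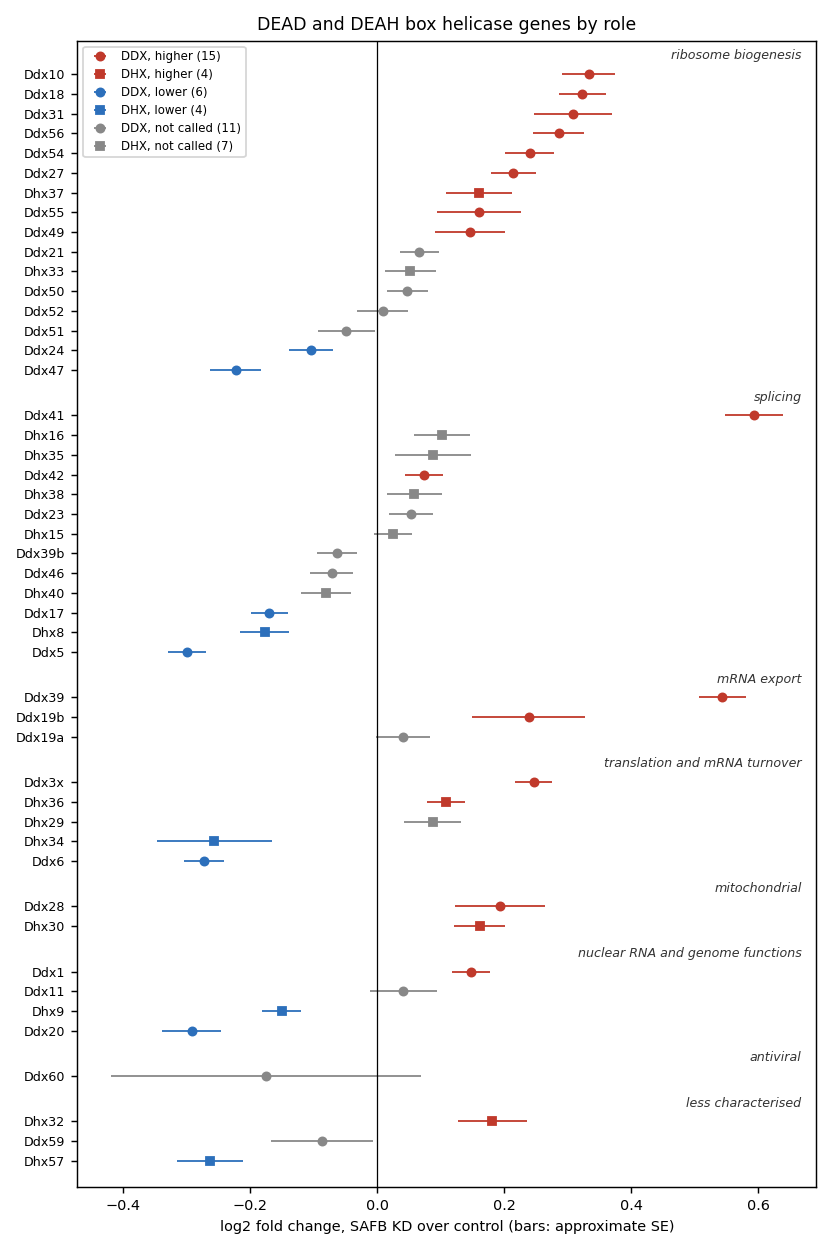
The 47 helicase genes, grouped by role, with the log2 fold change between SAFB KD and control on the x axis and an approximate SE as bars. Red marks genes called higher (19), blue lower (10) and grey not called (18), and circles are DDX and squares DHX genes. Ddx41 at 0.59 and Ddx39 at 0.54 stand farthest to the right, and no gene falls below -0.30.

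Summed over the 47 genes, transcripts of the class amounted to 6554 ± 52.8 CPM in SAFB KD and 6655 ± 120.0 CPM in control (SD, n = 3 each). The SAFB KD sums were 6603, 6498 and 6561 CPM, and the control sums were 6525, 6680 and 6761 CPM, so the groups overlapped. Per kilobase of exon, Ddx5 was the most abundant at 206 CPM per kb in SAFB KD and 254 CPM per kb in control, followed by Ddx3x at 169 CPM per kb in SAFB KD and 142 CPM per kb in control. Ddx17 came next, at 54.5 CPM per kb in SAFB KD and 61.3 CPM per kb in control. Ddx60, an interferon-induced antiviral gene, was the least abundant, at 0.928 to 1.12 CPM in SAFB KD and 0.863 to 1.5 CPM in control, and did not pass the test (log2 fold change -0.18 ± 0.244 SE, edgeR adjusted p = 0.623).

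**Figure D2:**
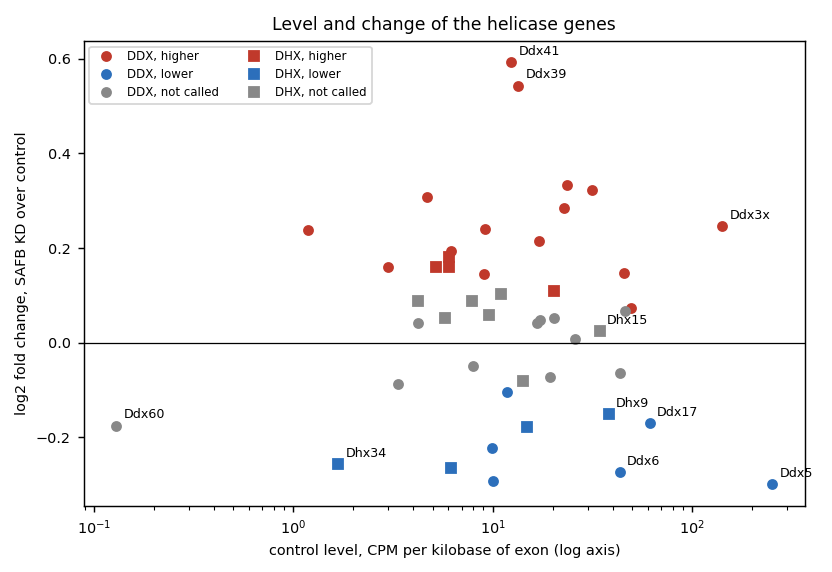
Control level in CPM per kilobase of exon (log x axis) against log2 fold change (y axis) for the 47 helicase genes, with circles for DDX, squares for DHX and colours by call. Called rises span control levels of 1.18 (Ddx19b) to 142 CPM per kb (Ddx3x), and called falls 1.69 (Dhx34) to 254 CPM per kb (Ddx5).

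Among the 16 helicases of ribosome biogenesis, which remodel the pre-ribosomal RNA and the small nucleolar RNAs bound to it, 9 were higher (56.2%), 2 lower (12.5%) and 5 not called, with a median log2 fold change of 0.15. The shares were 21.4% and 20.1% over all genes tested and 35.9% and 29.9% over the abundant coding genes, whose median log2 fold change was 0.025. Ddx10, an assembly helicase first known from the yeast protein Dbp4 that frees small nucleolar RNA from the pre-ribosome, had 95.7, 91.0 and 93.5 CPM in SAFB KD, against 67.8, 74.6 and 80.6 CPM in control, a log2 fold change of 0.33 ± 0.042 (SE, edgeR adjusted p = 1.39e-08). Every SAFB KD library lay above every control library, and control 3 was the highest control. Ddx18, whose yeast relative Has1 acts in both subunits, had 104, 94.3 and 95.8 CPM in SAFB KD, against 77.7, 76.3 and 80.9 CPM in control (log2 fold change 0.32 ± 0.038 SE, edgeR adjusted p = 2.49e-09). Its groups did not overlap, and SAFB KD 1 was the highest library. Ddx31, a nucleolar helicase, had 20.9, 19.7 and 21.2 CPM in SAFB KD, against 16.4, 16.4 and 17.3 CPM in control (log2 fold change 0.31 ± 0.061 SE, edgeR adjusted p = 6.26e-05). Ddx56, which acts in large subunit assembly, had 72.4, 71.4 and 68.5 CPM in SAFB KD, against 61.0, 56.4 and 56.5 CPM in control (log2 fold change 0.29 ± 0.04 SE, edgeR adjusted p = 1.47e-07). For both genes the lowest SAFB KD library exceeded the highest control. Ddx54 had 64.5, 66.9 and 66.4 CPM in SAFB KD, against 57.0, 55.4 and 55.2 CPM in control (log2 fold change 0.24 ± 0.039 SE, edgeR adjusted p = 2.22e-06). Ddx27, which takes part in the maturation of large subunit ribosomal RNA, had 96.2, 94.4 and 95.5 CPM in SAFB KD, against 79.8, 82.2 and 84.7 CPM in control (log2 fold change 0.21 ± 0.035 SE, edgeR adjusted p = 2.53e-06), and neither gene overlapped between groups.

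Ddx49, Ddx55 and Dhx37 were also called higher, at log2 fold changes of 0.14, 0.16 and 0.16. Ddx49 overlapped between groups and kept its call in 7 of the 12 other settings. Among its losses were those with DESeq2 (DESeq2 adjusted p = 0.0813) and without control 3 (log2 fold change 0.094, edgeR adjusted p = 0.21). Dhx37 lost its call without control 3 (0.10, edgeR adjusted p = 0.127) and without SAFB KD 2 (edgeR adjusted p = 0.0587). Ddx55 lost its call without control 1 (0.11, edgeR adjusted p = 0.266) and in 7 other settings. Ddx47, the relative of yeast Rrp3 that acts on the small subunit, went the other way, with 54.0, 58.0 and 57.4 CPM in SAFB KD, against 64.0, 65.8 and 68.3 CPM in control (log2 fold change -0.22 ± 0.04 SE, edgeR adjusted p = 1.46e-05). Its control libraries all lay above its SAFB KD libraries. Ddx24 had 91.8, 90.3 and 90.2 CPM in SAFB KD, against 101, 95.4 and 96.1 CPM in control (log2 fold change -0.10 ± 0.035 SE, edgeR adjusted p = 0.0131), with no overlap. The small difference missed the threshold without control 1 (edgeR adjusted p = 0.0627) and without SAFB KD 3 (edgeR adjusted p = 0.054). Ddx21, Ddx50, Ddx51, Ddx52 and Dhx33 did not pass the test, at log2 fold changes of -0.049 to 0.066. Summed over the 16 genes, the level was 1291 ± 10.5 CPM in SAFB KD and 1202 ± 19.9 CPM in control, a ratio of 1.07.

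Of the 13 splicing helicases, 2 were higher, 3 lower and 8 not called (15.4% higher and 23.1% lower, against 35.9% and 29.9% of the abundant coding genes), with a median log2 fold change of 0.025. With the filterByExpr filter on low counts, 1 was higher and 6 lower, as Ddx39b (edgeR adjusted p = 0.0426), Ddx46 (edgeR adjusted p = 0.0377) and Dhx40 (edgeR adjusted p = 0.0439) then passed. That filter tests fewer genes, and the log2 fold changes moved as well, for Ddx39b from -0.064 to -0.074, Ddx46 from -0.072 to -0.082 and Dhx40 from -0.080 to -0.091. Ddx41, a helicase of the catalytic spliceosome that is also mutated in familial myeloid malignancy in humans, had the largest change of all 47 genes. It lies on chromosome 13, 55530410 to 55536658, minus strand (GRCm38). It had 49.7, 51.7 and 49.3 CPM in SAFB KD, against 32.9, 33.6 and 33.4 CPM in control, a log2 fold change of 0.59 ± 0.045 (SE, edgeR adjusted p = 3.52e-14), or 1.51-fold. The SAFB KD libraries lay close together, all above the controls. Ddx42, which binds the U2 snRNP, was barely called (log2 fold change 0.07, edgeR adjusted p = 0.049) and lost its call in 11 of 12 other settings. The DEAH helicases that drive spliceosome remodelling had Dhx8 as their called member. Dhx8, which releases the spliced mRNA, had 67.8, 64.4 and 66.5 CPM in SAFB KD, against 77.3, 75.2 and 71.7 CPM in control (log2 fold change -0.18 ± 0.038 SE, edgeR adjusted p = 0.000185). Dhx16 and Dhx38, which act around the catalytic steps, Dhx15, which takes the spliceosome apart, and Dhx35 and Dhx40 did not pass, at log2 fold changes of -0.080 to 0.10. Nor did Ddx23 and Ddx46, which act in the assembly and activation of the spliceosome, at log2 fold changes of 0.05 (edgeR adjusted p = 0.244) and -0.07 (edgeR adjusted p = 0.0859).

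Ddx5 and Ddx17 (p68 and p72), close relatives that act in splicing and transcription, both fell. Ddx5 had 1190.3, 1191 and 1188 CPM in SAFB KD, against 1392, 1478 and 1524 CPM in control, a log2 fold change of -0.30 ± 0.029 (SE, edgeR adjusted p = 3.73e-11). The SAFB KD libraries were almost equal, the controls all lay higher, and control 1 was the lowest of them. Ddx17 had 408, 427 and 415 CPM in SAFB KD, against 461, 469 and 477 CPM in control (log2 fold change -0.17 ± 0.029 SE, edgeR adjusted p = 6.03e-06), again without overlap. Ddx39b (UAP56), which assists early spliceosome assembly and loads mRNA for export, had 156, 157 and 159 CPM in SAFB KD, against 167, 166 and 160.0 CPM in control, a log2 fold change of -0.06 ± 0.031 (SE, edgeR adjusted p = 0.103). Its groups did not overlap, but the difference did not pass the test, although it did without control 3 (-0.096, edgeR adjusted p = 0.0153). Summed over the 13 genes, transcripts amounted to 2842 ± 3.45 CPM in SAFB KD and 3150 ± 75.4 CPM in control, a ratio of 0.902, and Ddx5 and Ddx17 made up the greater part of the sum.

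**Figure D3:**
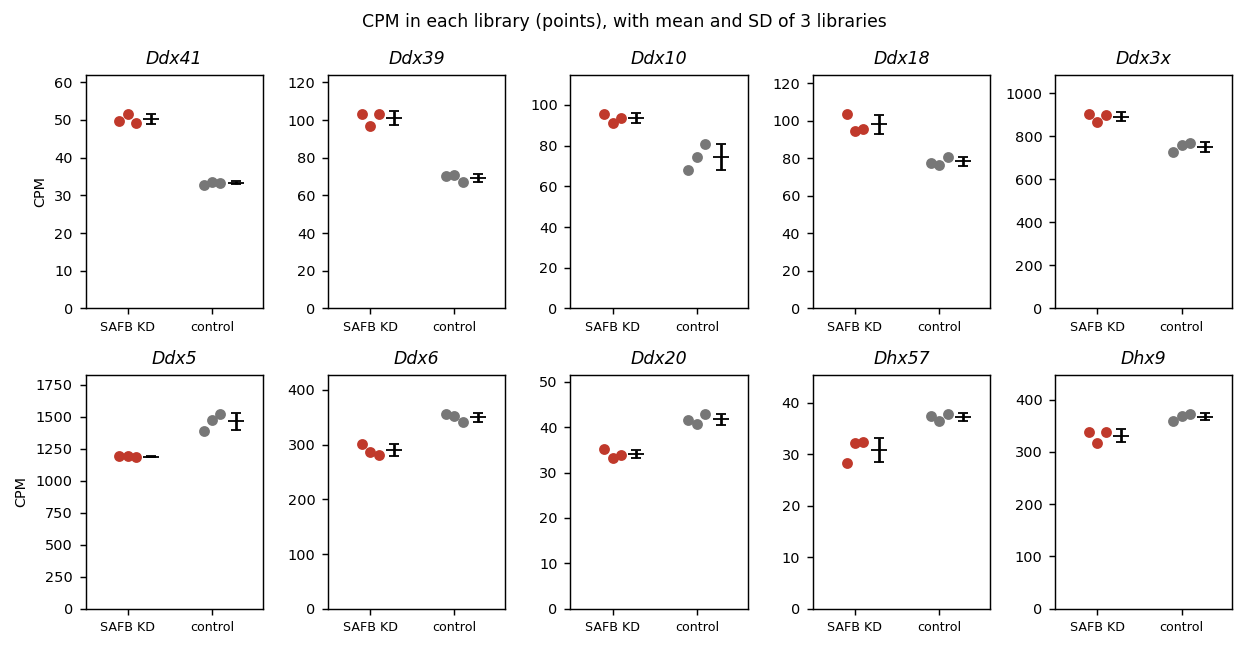
CPM (y axes from 0) of 10 helicase genes in the 3 SAFB KD libraries (red) and the 3 control libraries (grey), with mean and SD in black. The top row holds genes that were higher in SAFB KD, such as Ddx41 at 49.3 to 51.7 CPM against 32.9 to 33.6 CPM, and the bottom row genes that were lower, and no groups overlap.

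Ddx39 (URH49), the second gene for an export helicase of the UAP56 kind, rose. It had 103, 96.9 and 104 CPM in SAFB KD, against 70.1, 71.1 and 67.0 CPM in control, a log2 fold change of 0.54 ± 0.037 (SE, edgeR adjusted p = 1.32e-15), or 1.46-fold. All SAFB KD libraries lay above all controls. The log2 ratio of Ddx39 to Ddx39b was -0.60, -0.69 and -0.62 in SAFB KD, against -1.25, -1.22 and -1.26 in control. The groups did not overlap, and the mean ratio was 0.61 higher on the log2 scale in SAFB KD. An exact 2-sided permutation test gave p = 0.1, the smallest that 3 against 3 libraries allow, and p = 0.2 adjusted over the 4 pairs compared. The 2 genes shared 0 of their 50-base windows of transcript sequence. The export helicases at the nuclear pore are Ddx19a and Ddx19b. Ddx19b had 10.1, 9.16 and 8.98 CPM in SAFB KD, against 7.72, 7.38 and 8.84 CPM in control (log2 fold change 0.24 ± 0.089 SE, edgeR adjusted p = 0.0279), with every SAFB KD value above every control but control 3 close behind. The call of Ddx19b held in 8 of the 12 other settings. With DESeq2 its DESeq2 adjusted p was 0.0776, and without control 2 its edgeR adjusted p was 0.149. Ddx19a had 52.8, 49.2 and 51.3 CPM in SAFB KD, against 51.0, 49.1 and 48.8 CPM in control (log2 fold change 0.04 ± 0.043 SE, edgeR adjusted p = 0.49) and overlapped.

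Values of Ddx19a and Ddx19b are uncertain, because 28.1% of the 50-base windows of Ddx19a transcripts were also found in Ddx19b and 12.4% the other way. The log2 ratio of Ddx19a to Ddx19b was 2.39, 2.43 and 2.52 in SAFB KD and 2.72, 2.73 and 2.47 in control, and the groups overlapped (difference -0.20, exact permutation p = 0.2, adjusted 0.267). The log2 ratio of Ddx17 to Ddx5 was -1.54, -1.48 and -1.52 in SAFB KD, against -1.60, -1.65 and -1.68 in control. These did not overlap, and the mean was 0.13 higher in SAFB KD (exact permutation p = 0.1, adjusted 0.2). Ddx50 and Ddx21, nucleolar helicases that stand side by side on chromosome 10, had a log2 ratio of -0.49, -0.47 and -0.41 in SAFB KD and -0.47, -0.46 and -0.38 in control (difference -0.019, exact permutation p = 0.6). Ddx21 itself had 254, 254 and 239.8 CPM in SAFB KD, against 235, 240.2 and 239 CPM in control, and Ddx50 had 181, 183 and 181 CPM in SAFB KD, against 169, 175 and 183 CPM in control.

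**Figure D4:**
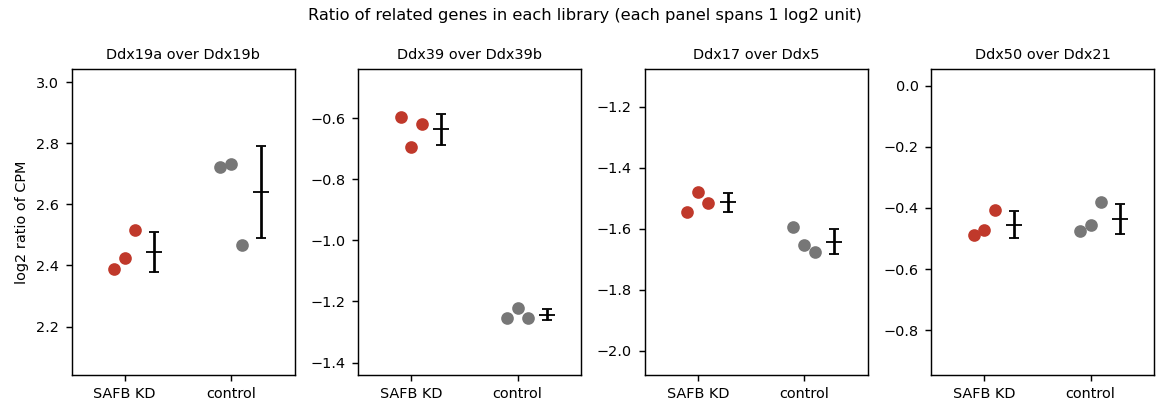
Log2 ratio of the CPM of 4 pairs of related genes in each library (SAFB KD red, control grey, mean and SD in black), each panel spanning 1 log2 unit. The ratio of Ddx39 to Ddx39b lies at -0.69 to -0.60 in SAFB KD and -1.26 to -1.22 in control, and that of Ddx50 to Ddx21 overlaps.

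Among 5 helicases of translation and mRNA turnover, 2 were higher (40%), 2 lower (40%) and 1 not called. The shares were 35.9% higher and 29.9% lower over the abundant coding genes, and 21.4% and 20.1% over all genes tested. Ddx3x, which helps ribosomes scan structured leaders, had 906, 867 and 901 CPM in SAFB KD, against 726, 759 and 770.1 CPM in control (log2 fold change 0.25 ± 0.029 SE, edgeR adjusted p = 3.39e-09). Every SAFB KD library exceeded every control library. Ddx6, which represses translation and promotes decapping in P-bodies, had 302, 287 and 281 CPM in SAFB KD, against 356, 353 and 341 CPM in control (log2 fold change -0.27 ± 0.031 SE, edgeR adjusted p = 1.58e-09), and the highest SAFB KD value lay under the lowest control value. Dhx36, which resolves G-quadruplex RNA, was higher by 0.11 on the log2 scale (edgeR adjusted p = 0.00289). Dhx34, a factor of nonsense-mediated decay, had 6.59, 6.38 and 6.52 CPM in SAFB KD, against 7.88, 7.98 and 7.38 CPM in control (log2 fold change -0.26 ± 0.091 SE, edgeR adjusted p = 0.021). Its groups did not overlap, yet it lost its call in 4 of the 12 other settings, with an edgeR adjusted p of 0.0789 at most. Dhx29, which assists initiation, was not called (0.09, edgeR adjusted p = 0.119).

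In the nuclear and other groups, Ddx20 (Gemin3), a part of the SMN complex that assembles snRNPs, had 35.1, 33.2 and 33.9 CPM in SAFB KD, against 41.6, 40.6 and 42.9 CPM in control (log2 fold change -0.29 ± 0.047 SE, edgeR adjusted p = 1.92e-06), without overlap. Dhx9 (RNA helicase A), which unwinds double-stranded RNA and is known to bind inverted repeats, had 338, 316 and 338 CPM in SAFB KD, against 359.8, 369 and 373 CPM in control (log2 fold change -0.15 ± 0.031 SE, edgeR adjusted p = 9.28e-05). All SAFB KD libraries lay below the controls, and SAFB KD 2 was the lowest. Ddx1, a part of the tRNA ligase complex, rose by 0.15 on the log2 scale (edgeR adjusted p = 8.12e-05), and Ddx11, which acts in genome maintenance, did not pass (0.04, edgeR adjusted p = 0.592). The mitochondrial ribosome factors Dhx30 and Ddx28 were higher by 0.16 (edgeR adjusted p = 0.000913) and 0.19 (edgeR adjusted p = 0.0256), although Ddx28 overlapped between groups. The call of Ddx28 held in 8 of the 12 other settings. Among its losses were those with DESeq2 (DESeq2 adjusted p = 0.0783) and without control 2 (0.13, edgeR adjusted p = 0.21). Dhx57, a less studied member, had 28.2, 32.1 and 32.3 CPM in SAFB KD, against 37.4, 36.4 and 37.8 CPM in control (log2 fold change -0.26 ± 0.052 SE, edgeR adjusted p = 5.09e-05), and SAFB KD 1 was the lowest library. Dhx32, also little studied, rose by 0.18 (edgeR adjusted p = 0.0059), with an edgeR adjusted p of 0.0576 without control 3, and Ddx59 did not pass (-0.09, edgeR adjusted p = 0.423).

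**Figure D5:**
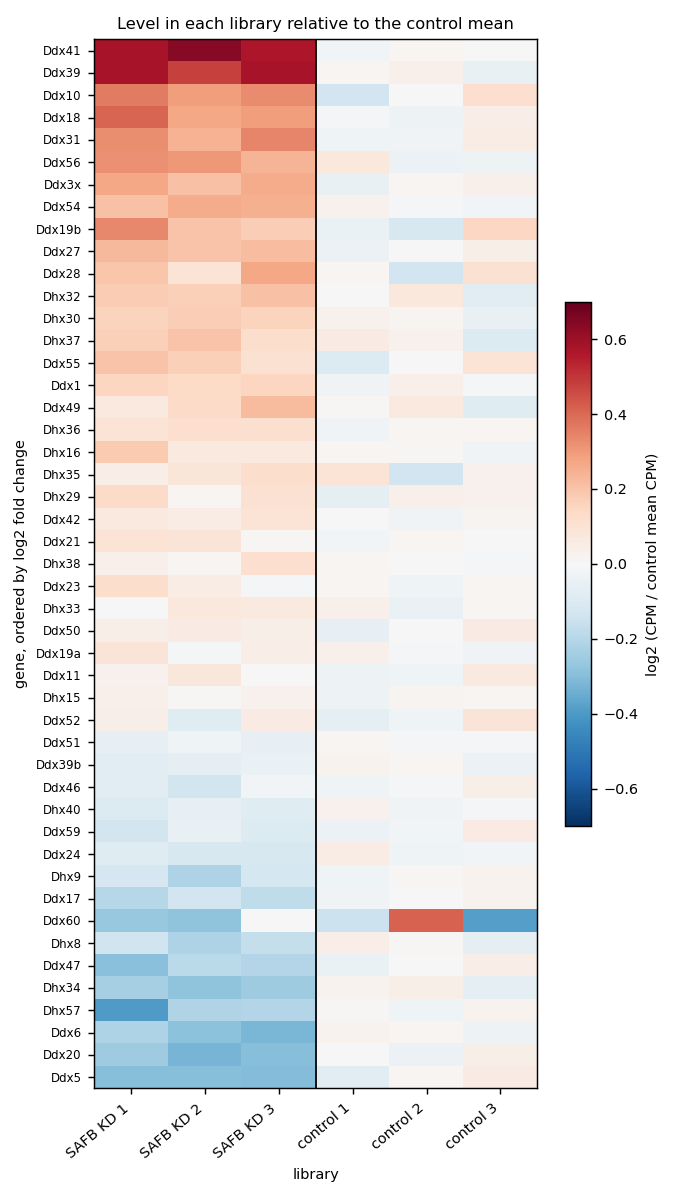
Log2 of the CPM of each of the 47 helicase genes (rows, ordered by log2 fold change) over its control mean, in the 3 SAFB KD libraries (left columns) and the 3 control libraries (right columns). The 2 top rows, Ddx41 and Ddx39, are the darkest red in all 3 SAFB KD columns, and Ddx60, at about 1 CPM, varies most among the controls.

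DDX and DHX genes had near-equal median changes. Of 32 DDX genes 15 were higher (46.9%) and 6 lower (18.8%), and of 15 DHX genes 4 were higher and 4 lower (26.7% each). The shares were 21.4% higher and 20.1% lower over all genes tested, and 35.9% and 29.9% over the abundant coding genes. Without control 3, 13 DDX and 2 DHX genes were higher. The median log2 fold change was 0.059 for DDX and 0.058 for DHX, a difference of 0.0010. Taken from each SAFB KD library over the control mean, and not from the fitted fold changes, the difference was 0.041, 0.053 and -0.017 (SD 0.037). This SD leaves out the spread among control libraries. Called DDX genes changed by a median of 1.18-fold and called DHX genes by 1.12-fold. The largest changes were all in DDX genes, and 14 of the 32 DDX genes but 2 of the 15 DHX genes belonged to ribosome biogenesis. Outside that role, 7 of 18 DDX genes were higher (38.9%) and 4 lower (22.2%). Of the 13 such DHX genes, 3 were higher (23.1%) and 4 lower (30.8%). Whether role accounts for the difference in shares was not tested.

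Among the cofactors and other helicases, 55.6% of the other RNA helicases, 57.1% of the G-patch proteins and 45.5% of the MIF4G list were called in either direction, against 65.8% of the abundant coding genes (35.9% higher and 29.9% lower). Of 18 tested RNA helicases outside these name classes 7 were higher and 3 lower, including Eif4a1, the translation helicase, with 1181, 1146 and 1183 CPM in SAFB KD, against 976, 985 and 1006 CPM in control (log2 fold change 0.24 ± 0.028 SE, edgeR adjusted p = 1.32e-09). Mtrex, the exosome helicase, was also higher (log2 fold change 0.17 ± 0.033 SE, edgeR adjusted p = 2.72e-05), and Helz was lower (log2 fold change -0.35 ± 0.042 SE, edgeR adjusted p = 4.37e-09). Of 21 G-patch proteins 5 were higher (23.8%) and 7 lower (33.3%). Gpatch8 (log2 fold change -0.29 ± 0.034 SE, edgeR adjusted p = 2.94e-09), Son (log2 fold change -0.26 ± 0.031 SE, edgeR adjusted p = 3.53e-09) and Rbm5 (log2 fold change -0.20 ± 0.034 SE, edgeR adjusted p = 6.43e-06) fell, and the splicing factor Rbm17 rose (log2 fold change 0.20 ± 0.033 SE, edgeR adjusted p = 1.67e-06). Of 11 listed proteins with a MIF4G, MIF4G-like or MA3 domain 1 was higher (9.09%) and 4 lower (36.4%). Ncbp1, the nuclear cap-binding subunit, rose by 0.32 ± 0.035 (SE, edgeR adjusted p = 5.96e-10), whereas Pdcd4, an inhibitor of Eif4a1 with MA3 domains and no MIF4G domain, had 49.9, 58.7 and 54.4 CPM in SAFB KD, against 81.2, 80.0 and 78.4 CPM in control (log2 fold change -0.55 ± 0.043 SE, edgeR adjusted p = 6.17e-14). Eif4g2 (log2 fold change -0.19 ± 0.028 SE, edgeR adjusted p = 4.39e-07) and Eif4g3 (log2 fold change -0.18 ± 0.04 SE, edgeR adjusted p = 0.000243) fell as well.

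Across the 47 genes, log2 fold change had a Spearman correlation of -0.35 with exonic length, against -0.18 over 13506 coding genes tested. With transcript GC content the correlation was 0.29 across the 47 genes, and its value over the coding genes was not computed. These are descriptions across genes that share libraries and depth. Median exonic length was 4817 bases for members called higher and 6347 bases for those called lower. The introns of 10 members held 13 nested genes, of which 7 were tested, all on the strand of the host, and 0 were called. These 7 were shallow, with control means from 0.0176 CPM (Gm22297) to 2.96 CPM (Gm47260). The SE of their log2 fold changes ran from 0.15 (Gm47260) to 1.31 (Gm22297), so changes could have been missed. On the same strand, exons of other genes, all small RNA genes, covered 4.41% of the exonic bases of Ddx39b, 2.91% of Ddx5 and 1.07% of Dhx30, and 0 of the remaining members.

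Promoter windows of RefSeq genes (GRCm38.p6, 250 bases before to 50 after the start) were found for 42 members, but not for Ddx6, Ddx11, Ddx23, Ddx39 and Dhx38. The core of the ETS factor motif, CCGGAAGT on either strand, was present in 10 of 42 (23.8%), against 8.18% of 10483 promoters of tested coding genes and 4% of all 27018. Its share in promoters of the abundant coding genes was not computed, so the excess cannot be called particular to helicase genes. Of these 10 genes 3 were higher, 5 lower and 2 (Ddx39b and Ddx50) not called. Over the abundant coding genes 35.9% were higher and 29.9% lower, and over all genes tested 21.4% and 20.1%. A link between motif and call was not tested. The sites of the called ones are shown to let this be read beside the values above, in lower case with the motif in capitals.
Ddx17 (chr15:79546952-79546981, minus strand): tgcccagagacCCGGAAGTctgactaaggc
Ddx47 (chr6:135011609-135011638, plus strand): gcctcggccccACTTCCGGagcccacgagc
Dhx8 (chr11:101732964-101732993, plus strand): cgagcgccgacCCGGAAGTggaagctgtgg
Dhx9 (chr1:153487738-153487767, minus strand): aggtttggcgcCCGGAAGTggttcaagccc
Dhx34 (chr7:16222011-16222040, minus strand): accatttaggaCCGGAAGTtgaggcgtccg
Ddx27 (chr2:167015300-167015329, plus strand): actcgctacgtCCGGAAGTggctgcttctt
Dhx30 (chr9:110117662-110117691, minus strand): cggccgctccgCCGGAAGTcccgcctgtgt
Dhx37 (chr5:125434094-125434123, minus strand): gcatgcgcaacCCGGAAGTctcctagccag
Genes called lower (Ddx17, Ddx47, Dhx8, Dhx9 and Dhx34) and genes called higher (Ddx27, Dhx30 and Dhx37) both carried the motif, with ACTTCCGG, its other strand, in Ddx47. The E-box CACGTG was present in 7.14% of member promoters and 9.94% of tested coding promoters, and TATAAA in 2.38% and 7.44%. A match describes letters in this window and not binding.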

How the data were processed

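Poly(A)+ RNA was measured in 3 SAFB KD and 3 control libraries, grouped by the sample titles. The authors aligned trimmed reads to GRCm38 with STAR 2.7.9a, and the deposited values are counts of reads per gene. It is inferred that the column holds reverse-stranded counts of uniquely mapped reads, so reads shared by genes are missing. Symbols, coordinates and exons came from GENCODE M21 on GRCm38, not the release of the study, and 54495 of 54532 identifiers matched. Genes with fewer than 10 reads over 6 libraries were removed (35080), leaving 19452. Counts were scaled by TMM and compared by edgeR 4.0.16 (quasi-likelihood test, R 4.3.3), Benjamini-Hochberg adjusted over all genes, at 0.05. Changes beyond 2-fold used glmTreat. SE is approximate, derived from the test statistic, and SD covers 3 libraries. Paralogue ratios used exact permutation tests. No 2 replicates agreed within counting noise (chi-square of 4.18 to 21.8 for each degree of freedom). The tests were run on counts simulated with a common dispersion. That setting lacks the differences among libraries seen here, so it did not check the small calls. Members and lists were chosen with earlier results of these data known. Named in full were the 8 largest rises and 8 largest falls among called members with a mean of at least 1 CPM, the paralogue pairs, Dhx9, Ddx3x, and up to 4 genes of each other list, of which 1 is not reported here. Ddx24 and Ddx27 are given in full outside that rule, chosen after their values were seen. Alternatives were RLE scaling, DESeq2 1.42.0, limma-voom (limma 3.58.1), filterByExpr, no filter, a replicate block and leaving out each library.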

Additional observations from a re-analysis of the deposited data

How the results depend on the processing

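The counts of members called higher were 17 with RLE scaling, 14 with DESeq2, 19 with limma-voom, 17 with filterByExpr and 17 without a filter, against 19, and the counts called lower were 10, except 13 with filterByExpr. Leaving out 1 library gave 15 to 17 higher and 9 to 11 lower, and 0 members passed 2-fold in any setting. Replicate numbers did not pair the samples (correlation of deviations -0.017 to -0.0051), and with a replicate block 18 members were higher and 10 lower. The median difference between DDX and DHX lay between -0.0201 and 0.0324 in all 12 settings. The ratio of Ddx50 to Ddx21 changed sign without control 3 (-0.0436 to 0.00898 over the libraries left out). The log2 fold change of Ddx52, which was positive and not called, turned to -3.8e-05 with RLE scaling, -0.00072 with DESeq2, -0.0016 with filterByExpr and -0.030 to 0.052 over the libraries left out. Ddx60, not called either, turned to 0.088 without control 2 and was -0.33 without control 3. Of the 29 calls, those of Dhx34, Ddx24, Ddx42, Ddx49, Ddx55, Dhx37, Dhx32, Ddx28 and Ddx19b were lost in at least 1 setting. The causes were not tested. With 3 libraries a group, exact tests of a ratio cannot go below p = 0.1. Ddx60, at about 1 CPM, was too shallow to compare finely.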
